A study of Mus musculus with 8 samples.

Results

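The NRF2-type antioxidant genes measured here were 10 genes chosen by symbol: Nfe2l2, which encodes the transcription factor NRF2, 6 antioxidant genes that NRF2 is known to drive (Nqo1, Gclm, Gclc, Slc7a11, Srxn1 and Prdx1), the superoxide dismutase genes Sod1 and Sod2, and the catalase gene Cat. The deposited tables list 17364 symbols, all 10 of these included, and all 10 passed the filter on low counts that left 12462 genes for testing. The comparison was of bone-marrow-derived macrophages (BMDMs, macrophages grown in culture from mouse marrow) of Sept2C111A mice, whose allele name gives a cysteine changed to alanine in septin 2, a GTP-binding cytoskeletal protein. They were set against BMDMs of wild-type (WT) mice, with 4 RNA sequencing libraries of each genotype. Both genotypes were treated with the cytokine TNF-α (30 ng/ml, 24 h), and no untreated cells are compared here. The labels give no strain, age, number of mice or number of mutant copies, and they do not say whether replicates came from separate animals. The p-values therefore measure the spread between these libraries, which may be technical.

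NRF2 is held in the cytoplasm by KEAP1, which passes it to ubiquitin-dependent degradation. Oxidants and electrophiles modify cysteines of KEAP1, after which NRF2 accumulates, pairs with a small MAF protein and binds antioxidant response elements in its target genes. Those targets supply cystine for glutathione, make glutathione, reduce peroxides and quinones, and feed NADPH to these reactions. In macrophages the system works against the superoxide made by the phagocyte NADPH oxidase. NRF2 activity is set largely at the protein level, which read counts do not show.

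The short sites below are shown because the antioxidant response element is the sequence by which NRF2 recognises its targets. RefSeq promoter windows (build GRCm38.p6, 250 bases before to 50 bases after the annotated start) matched 9 of the 10 genes, Gclc not being among them. The core TGACNNNGC, searched on both strands, was present in the windows of 5 of these 9 genes and in 12.4% of all 32851 windows of that length. The former count is by gene and the latter by window, so they are not like for like. Each site is written 5′ to 3′ on the strand where the core reads, with the core in capitals and 10 bases on each side.
Nfe2l2: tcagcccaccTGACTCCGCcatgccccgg
Gclm: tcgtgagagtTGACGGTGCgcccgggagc
Srxn1: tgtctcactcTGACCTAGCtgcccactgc
Prdx1: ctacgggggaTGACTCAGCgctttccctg
Sod1: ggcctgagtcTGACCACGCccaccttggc
The sites lie on the minus strand at chr2:75704885-75704913, chr3:122245413-122245441, chr2:152105542-152105570, chr4:116685456-116685484 and chr16:90220696-90220724. The core of Srxn1 begins at base 29 after the start and so within the transcribed part, and the other 4 lie before it. The Prdx1 core contains the AP-1 letters TGACTCA, which were also found in the Srxn1 window and in 5.2% of all windows. A match of letters is a description and not a bound site, and longer-range elements lie outside these windows.

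Slc7a11 was the only gene of the 10 called different between the genotypes in the main fit, as given below. Its window held no core of that kind. It held the letters TGATGNAA, known from amino acid response elements bound by ATF4, in 2 inverted copies, at bases -66 and -47 from the start. These letters were searched after the values were seen, and a part of ATF4 in the level of Slc7a11 was not tested. They were found in no other of the 9 windows and in 3.97% of all windows. The 120 bases before the start (chr3:50443614-50443733, minus strand) are printed with both copies in capitals.
Slc7a11: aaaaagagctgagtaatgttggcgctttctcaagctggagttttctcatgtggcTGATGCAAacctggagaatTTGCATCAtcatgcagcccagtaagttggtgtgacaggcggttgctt

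Slc7a11, the cystine importer gene, had less RNA in Sept2C111A than in WT libraries, and Nfe2l2 and its inhibitor Keap1 had nearly equal mean levels in both genotypes. Srxn1, Nqo1 and Sod2 lay below WT in every Sept2C111A library without passing the test. Of the 10 genes, 1 was called lower and 0 were called higher (edgeR quasi-likelihood test, Benjamini-Hochberg adjusted p under 0.05 over all tested genes). The background in the same test was 6.46% of all tested genes called, 3.43% higher and 3.03% lower, so the 1 call among the 10 genes lies near that background. The fit without Sept2C111A library 4 called 5 of the 10 lower and 1 higher, where it called 16.5% of all tested genes. The fit without Sept2C111A library 3 called 3 lower, with 5.66% of all tested genes. DESeq2 and limma voom with sample weights called 4 lower each, with 11.5% and 10.8% of all tested genes. Removal of length and GC trends called 3 lower, with 12.6%. RLE size factors, the filter at 1 CPM, limma voom and the fit without Sept2C111A libraries 2 and 3 called 2 lower each, with 6.55%, 6.98%, 6.52% and 3.86%. Slc7a11 alone was called with no filter (4.64%), unrounded counts (6.48%), the replicate block (3.96%), without Sept2C111A library 1 (7.76%) or 2 (2.86%), and without WT library 1 (2.24%), 2 (3.77%), 3 (2.12%) or 4 (2.99%). At an unadjusted p under 0.05 there were 7 of the 10, against 24.8% of all tested genes. The log2 fold change was negative for 8 of the 10, against 48.2% of all tested genes, with a median of -0.26 against 0.01. Libraries of the 2 genotypes did not overlap for 4 of the 10, all with Sept2C111A below WT, where 8.47% of all tested genes lay in that way and 16.9% did not overlap in either direction.

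The total expected count ran from 19543958 to 21288493 per library. CPM values are counts scaled to library size (the usual CPM unit) after TMM normalization, and a gene without reads would lie below 0.14 to 0.159 CPM, the level of 3 counts, for counting error only. Septin2, which carries the allele, measured 188 ± 18.7 CPM in Sept2C111A and 226 ± 7.43 CPM in WT libraries (mean ± SD, n = 4 each, as for all CPM values given with ±) and was not called (edgeR adjusted p = 0.063). Read counts per gene do not show the base change. Markers of macrophages were abundant, with summed levels of 20465 to 22448 CPM in Sept2C111A and 22684 to 24456 CPM in WT libraries. Lyz2, the lysozyme gene, made up most of that sum, with means of 12366 CPM in Sept2C111A and 14365 CPM in WT libraries, and was not called (edgeR adjusted p = 0.12). Of the 8 macrophage markers 1 was called, Fcgr1, an Fc receptor gene, which was higher (log2 fold change 1.18, edgeR adjusted p = 0.0011). Without being called, Cd68 was higher in every Sept2C111A library than in any WT library (log2 fold change 0.16). Lyz2 (-0.22) and Cd14 (-0.18) were lower in every Sept2C111A library than in any WT library, also without being called. The remaining macrophage markers overlapped between the genotypes. The 8 stromal markers were present as well, summing to 3395 to 4279 CPM in Sept2C111A and 4327 to 5662 CPM in WT libraries, and 2 of them, Col1a1 and Acta2, were called lower. Markers of neutrophils, dendritic cells, lymphocytes and endothelium summed to at most 5.96 CPM in any library, and no measured marker was at 0 in all libraries. Among these the endothelial sum was higher in every Sept2C111A library, at 4.88 to 5.63 CPM against 4.06 to 4.30 CPM in WT libraries. Most of that sum was Pecam1, with means of 4.02 CPM in Sept2C111A and 2.92 CPM in WT libraries, which was called higher (edgeR adjusted p = 0.045). The rest of the endothelial list held no call and differed in direction. Cdh5 (log2 fold change -0.51) and Kdr (0.32) overlapped between the genotypes and were not called, and Tek was not tested. Each library holds a whole culture, so fewer cells of a type and less RNA per cell cannot be told apart.

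**Figure D1:**
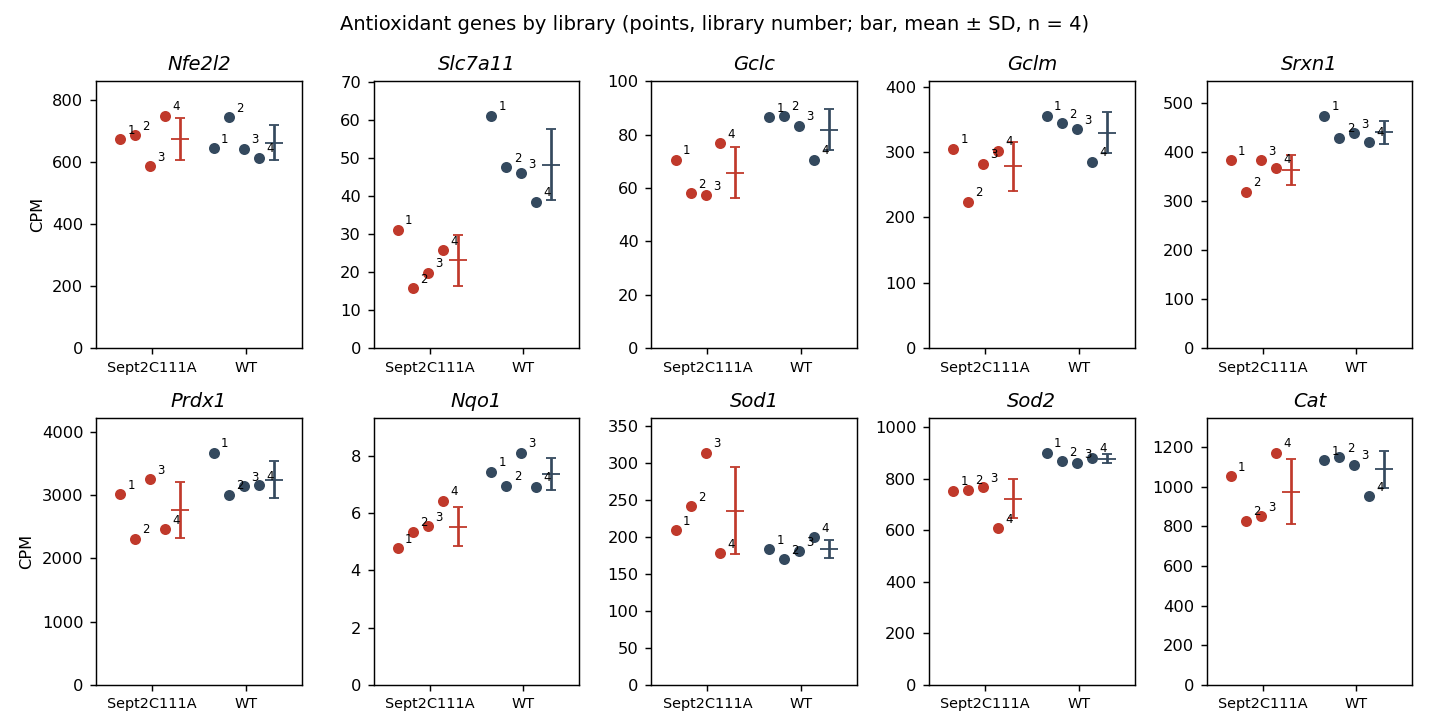
Normalized expression (CPM, linear axis from 0) of the 10 genes in each library, Sept2C111A left of WT, with library numbers beside the points and the mean ± SD of 4 libraries at the right of each group. The Sept2C111A and WT libraries do not overlap for Slc7a11, Srxn1, Nqo1 and Sod2, and Sept2C111A library 3 lies highest for Sod1.

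The regulator came first. Nfe2l2 (ENSMUSG00000015839.6, chr2:75675513-75704641, mm10) measured 674, 686, 587 and 748 CPM in Sept2C111A libraries 1 to 4, against 645, 743, 643 and 614 CPM in WT libraries 1 to 4. The groups overlapped, with Sept2C111A library 3 lowest and Sept2C111A library 4 highest of all. Its log2 fold change was 0.03 (95% interval -0.17 to 0.22, edgeR adjusted p = 0.88). Its sign turned on leaving out Sept2C111A library 4 (-0.023) or WT library 4 (-0.0035). Keap1, the inhibitor of NRF2, measured 91.5 ± 7.31 CPM in Sept2C111A and 90.7 ± 1.68 CPM in WT libraries (log2 fold change 0.01, 95% interval -0.13 to 0.16). The ratio of Nfe2l2 to Keap1 counts within a library, on the log2 scale, averaged 2.88 ± 0.226 in Sept2C111A and 2.86 ± 0.123 in WT libraries (SD, n = 4 each; exact two-sided permutation p = 0.91).

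Cystine uptake and glutathione synthesis followed. Slc7a11 (ENSMUSG00000027737.10, chr3:49892526-50443614) encodes xCT, the light chain of the antiporter that brings in cystine in exchange for glutamate. It measured 31.2, 15.8, 19.8 and 25.8 CPM in Sept2C111A libraries 1 to 4, against 61.2, 47.6, 46.1 and 38.5 CPM in WT libraries 1 to 4. All Sept2C111A libraries lay below all WT libraries, the nearest being Sept2C111A library 1 and WT library 4. Sept2C111A over WT gave a log2 fold change of -1.06 (SE 0.19, 95% interval -1.48 to -0.63, edgeR adjusted p = 0.011), or 0.48 times the WT level. It also varied most among libraries of 1 genotype, with a coefficient of variation of 29.1% in Sept2C111A and 19.5% in WT, against 2.02% to 24.8% for the other 9 genes in either genotype. The call was kept in all 18 alternatives of processing and of libraries left out, with log2 fold changes between -1.23 and -0.76 and adjusted p values up to 0.04.

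The summed level of the 8 stromal markers was also lower in every Sept2C111A library than in any WT library, and its part in the result was not tested. It was 4279, 3430, 3395 and 4101 CPM in Sept2C111A libraries 1 to 4, against 5350, 4327, 5662 and 5282 CPM in WT libraries 1 to 4. Among Sept2C111A libraries, libraries 1 and 4 were the higher ones for both the stromal sum and Slc7a11. Among WT libraries, library 2 had the lowest stromal sum and library 4 the lowest Slc7a11 level. Slc3a2, the heavy chain that carries xCT to the membrane, measured 378 ± 39.5 CPM in Sept2C111A and 356 ± 17.7 CPM in WT libraries and was not called (log2 fold change 0.09, 95% interval -0.09 to 0.26), a gene chosen after its values were seen. Its sign turned without Sept2C111A libraries 2 and 3 (-0.04). The difference between the 2 chains was not tested.

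Glutamate-cysteine ligase, which makes the first and rate-limiting step of glutathione synthesis, has a catalytic subunit, Gclc, and a modifier subunit, Gclm. Gclc (chr9:77754535-77794485) measured 70.6, 58.0, 57.4 and 76.7 CPM in Sept2C111A libraries, against 86.4, 87.0, 83.3 and 70.6 CPM in WT libraries. Gclm (chr3:122245557-122270732) measured 305, 224, 282 and 302 CPM in Sept2C111A libraries, against 355, 344, 335 and 285 CPM in WT libraries. For both subunits WT library 4 was the low library of its genotype and lay among the Sept2C111A libraries. Neither was called, with log2 fold changes of -0.32 (SE 0.11, adjusted p = 0.098) for Gclc and -0.24 (SE 0.10, adjusted p = 0.18) for Gclm in edgeR. Gclc was called without Sept2C111A library 4 (-0.39, adjusted p = 0.02). The log2 ratio of Gclm to Gclc averaged 2.08 ± 0.16 in Sept2C111A and 2.01 ± 0.0231 in WT libraries (SD, n = 4 each; exact two-sided permutation p = 0.457). In WT libraries the subunits kept nearly the same ratio from library to library, and among Sept2C111A libraries it ran from 1.95 to 2.30.

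Prdx1, Srxn1 and Nqo1 encode proteins of peroxide and quinone reduction. Srxn1 (ENSMUSG00000032802.8, chr2:152105516-152111376) encodes sulfiredoxin, which restores over-oxidised peroxiredoxins. It measured 383, 319, 383 and 368 CPM in Sept2C111A libraries, against 474, 429, 439 and 421 CPM in WT libraries. The groups did not overlap, and the log2 fold change of -0.28 (SE 0.075) just missed the threshold in edgeR (adjusted p = 0.0502). The result lies on that threshold: 8 of the 18 alternatives called it, RLE size factors among them (adjusted p = 0.048), and the log2 fold change stayed between -0.30 and -0.22 in all 18.

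Nqo1 (ENSMUSG00000003849.8, chr8:107388225-107403206), a quinone reductase and a standard readout of NRF2 activity, was scarce in these cells. It measured 4.78, 5.35, 5.54 and 6.43 CPM in Sept2C111A libraries, against 7.44, 6.95, 8.11 and 6.92 CPM in WT libraries. The groups did not overlap, with Sept2C111A library 4 nearest to WT library 4. A log2 fold change of -0.41 (SE 0.12) was not called in edgeR (adjusted p = 0.062). It was called by DESeq2 (adjusted p = 0.035), by limma voom with sample weights (0.019), without Sept2C111A library 4 (0.02) and with length and GC trends removed (0.026).

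Prdx1 (ENSMUSG00000028691.12, chr4:116685544-116700822), the cytosolic peroxiredoxin that Srxn1 repairs, was the most abundant of the 10. It measured 3012, 2309, 3246 and 2461 CPM in Sept2C111A libraries, against 3668, 3002, 3133 and 3150 CPM in WT libraries. Sept2C111A libraries 1 and 3 lay among the WT libraries and libraries 2 and 4 below them. The log2 fold change of -0.23 (95% interval -0.48 to 0.02) was not called in edgeR (adjusted p = 0.24).

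Superoxide dismutases and catalase remove superoxide and hydrogen peroxide in different compartments. Sod2 (ENSMUSG00000006818.5, chr17:13006846-13040063), the mitochondrial manganese enzyme and a known NF-κB target that TNF induces, measured 754, 758, 767 and 608 CPM in Sept2C111A libraries, against 902, 868, 861 and 881 CPM in WT libraries. WT libraries had a coefficient of variation of 2.02%, and 3 of the Sept2C111A libraries lay close together with library 4 below them. The groups did not overlap, and the log2 fold change of -0.28 (SE 0.08) was not called in edgeR (adjusted p = 0.061). It was -0.20 and called without Sept2C111A library 4 (adjusted p = 0.04), and called also without Sept2C111A library 3 (0.049), without libraries 2 and 3 together (0.031), by DESeq2 (0.013) and by limma voom with sample weights (0.02). With length and GC trends removed it was -0.22 (adjusted p = 0.2).

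Sod1 (ENSMUSG00000022982.10, chr16:90220754-90226329), the cytosolic copper and zinc enzyme, measured 209, 241, 314 and 178 CPM in Sept2C111A libraries, against 183, 169, 180 and 200 CPM in WT libraries. Sept2C111A library 3 was the highest of all and library 4 lay among the WT libraries. Its log2 fold change of 0.36 (SE 0.14) was not called in edgeR (adjusted p = 0.15). It fell to 0.19 without Sept2C111A library 3 and to 0.08 without libraries 2 and 3, and was 0.48 and called without library 4 (adjusted p = 0.022). Its transcript, of 641 bases, is the shortest among the longest coding transcripts of the 10 genes, and with length and GC trends removed the log2 fold change was 0.20 (adjusted p = 0.079). The gene overlaps Scaf4 on the opposite strand, with 0 exonic bases shared.

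The balance of the dismutases was compared within each library, where no scaling enters. The log2 ratio of Sod2 to Sod1 counts was 1.85, 1.65, 1.29 and 1.78 in Sept2C111A libraries, against 2.30, 2.36, 2.26 and 2.14 in WT libraries. All Sept2C111A libraries lay below all WT libraries, with a difference of -0.62 between the means. The exact two-sided permutation p was 0.0286, the smallest that 4 against 4 allows, and 0.0858 when adjusted over the 3 ratios tested, which does not pass. The difference ran from -0.69 to -0.50 on leaving out single libraries, where 3 against 4 cannot go below 0.0571. The genes differ in transcript length, 5.861 kb for Sod2 and 0.641 kb for Sod1. With length and GC trends removed, the log2 fold change moved from -0.28 to -0.22 for Sod2 and from 0.36 to 0.20 for Sod1. Both thus lay nearer to each other, and the ratio itself was not tested with these trends removed.

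Cat (ENSMUSG00000027187.10, chr2:103453849-103485160), the peroxisomal catalase, measured 1053, 827, 849 and 1171 CPM in Sept2C111A libraries, against 1134, 1149, 1110 and 951 CPM in WT libraries. Sept2C111A libraries 1 and 4 lay within or above the WT range and libraries 2 and 3 below it. The log2 fold change of -0.16 (95% interval -0.41 to 0.10) was not called in edgeR (adjusted p = 0.43), and it was 0.03 without Sept2C111A libraries 2 and 3. The libraries were not alike across the 10 genes: Sept2C111A library 2 was the lowest of all 8 libraries for 5 genes (Gclm, Slc7a11, Srxn1, Prdx1 and Cat), and WT library 1 was the highest for 5.

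**Figure D2:**
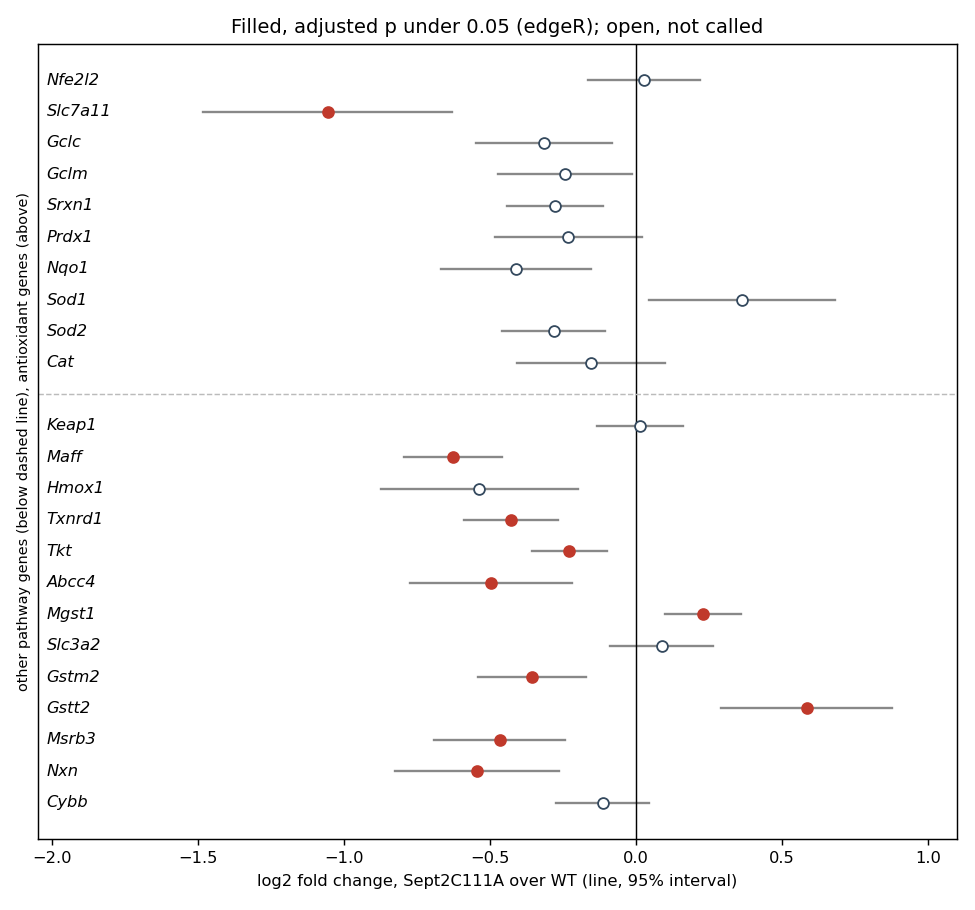
Log2 fold change of Sept2C111A over WT with its 95% interval (edgeR) for the 10 antioxidant genes above the dashed line and named genes of the same pathway below it, filled where the adjusted p was under 0.05. Among the 10 only Slc7a11 is filled, at -1.06, and Nfe2l2 and Keap1 lie at 0.03 and 0.01.

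Levels between genes were set side by side per kilobase of the longest coding transcript. Prdx1 led with 1202 ± 194 CPM per kb in Sept2C111A and 1412 ± 128 CPM per kb in WT libraries. Cat followed with 373 ± 63.5 and 416 ± 35, Sod1 with 367 ± 91.2 and 286 ± 19.4, and Nfe2l2 with 272 ± 26.9 and 267 ± 22.8 CPM per kb in Sept2C111A and WT libraries. Srxn1 stood at 129 ± 10.8 and 157 ± 8.26, Sod2 at 123 ± 12.9 and 150 ± 3.02, Gclm at 49.8 ± 6.72 and 59.0 ± 5.54, and Gclc at 19.2 ± 2.79 and 23.9 ± 2.24 CPM per kb in the same order. Nqo1 and Slc7a11 were lowest, Nqo1 at 3.56 ± 0.441 and 4.74 ± 0.359 and Slc7a11 at 2.51 ± 0.731 and 5.24 ± 1.02 CPM per kb. Neighbours in the order that differed by less than the sum of their SDs were Srxn1 and Sod2, Sod1 and Nfe2l2, and Nqo1 and Slc7a11 in both genotypes, and Cat and Sod1 in Sept2C111A libraries. The order rests on the transcript chosen, since 5 of the 10 genes have more than 1 coding transcript. Over its shortest one, Sod2 would stand at 1601 CPM per kb in Sept2C111A and 1947 CPM per kb in WT libraries, and Gclm at 953 CPM per kb in Sept2C111A and 1129 CPM per kb in WT libraries. Prdx1 would then stand at 4512 and 5301, Cat at 1251 and 1394, and Slc7a11 at 9.58 and 20.0 CPM per kb in Sept2C111A and WT libraries. The order given holds for the longest coding transcripts only.

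Of 17 listed regulators and partners 16 were tested, 1 was called lower and 0 higher, with a median log2 fold change of 0.01. The share called was 6.25%, against 6.46% of all tested genes. Without Sept2C111A library 4 the calls were 2 lower and 1 higher, where 16.5% of all tested genes were called. Without Sept2C111A library 1, where 7.76% of all tested genes were called, 1 was higher. The gene called was Maff, which encodes a small MAF protein that pairs with NRF2. Maff measured 32.4, 26.3, 27.3 and 29.0 CPM in Sept2C111A libraries, against 44.5, 44.8, 46.8 and 41.6 CPM in WT libraries. All Sept2C111A libraries lay well below the WT libraries, and the log2 fold change was -0.63 (SE 0.076, edgeR adjusted p = 0.0011). The call was kept in all 18 alternatives.

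Of 30 other listed NRF2 targets 28 were tested, with 3 called lower, 1 higher and a median log2 fold change of -0.06. The share called was 14.3%, against 6.46% of all tested genes. Txnrd1, the cytosolic thioredoxin reductase, measured 684, 570, 653 and 607 CPM in Sept2C111A libraries, against 905, 820, 839 and 819 CPM in WT libraries. The groups did not overlap, and the log2 fold change of -0.43 (SE 0.073, edgeR adjusted p = 0.0073) was called in all 18 alternatives as well. Tkt, the transketolase of the pentose phosphate pathway, measured 389 ± 16.4 CPM in Sept2C111A and 457 ± 11.2 CPM in WT libraries (edgeR adjusted p = 0.041). Abcc4, an organic anion efflux pump, measured 13.6 ± 2.46 CPM in Sept2C111A and 19.2 ± 1.89 CPM in WT libraries (edgeR adjusted p = 0.041). Mgst1, a microsomal glutathione transferase, rose to 136 ± 8.19 CPM in Sept2C111A, against 116 ± 1.50 CPM in WT libraries (edgeR adjusted p = 0.047). The calls of Tkt and Abcc4 were lost without Sept2C111A library 2 (adjusted p = 0.13 and 0.12) or any single WT library (adjusted p 0.067 to 0.15), and that of Abcc4 also without Sept2C111A library 3 (0.067). Mgst1 kept its call on leaving out Sept2C111A library 4 and lost it on leaving out any other single library (0.053 to 0.13), and with length and GC trends removed (0.33). The count called lower was 1 without any single WT library or Sept2C111A library 2, and 7 without Sept2C111A library 4. The share of all tested genes called moved in the same fits, at 2.12% to 3.77% without single WT libraries, 2.86% without Sept2C111A library 2 and 16.5% without Sept2C111A library 4, and the counts of the lists below are to be read against the same shares.

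Hmox1, the heme oxygenase gene and a widely used NRF2 target, was named after its values were seen. It measured 2650, 1582, 2433 and 2451 CPM in Sept2C111A libraries, against 3918, 2964, 3432 and 2921 CPM in WT libraries. The groups did not overlap, and the log2 fold change of -0.54 (SE 0.15) was not called in edgeR (adjusted p = 0.062), while DESeq2 (0.009), the replicate block (0.034), limma voom with sample weights (0.026), no filter on low counts (0.0497), removal of length and GC trends (0.03) and the fit without Sept2C111A library 4 (0.035) called it.

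In the glutathione system 29 of 33 listed genes were tested, 2 were called higher and 1 lower, and the median log2 fold change was 0.03. The share called was 10.3%, against 6.46% of all tested genes. Mgst1 is one of the risers. The other was Gstt2, a theta-class glutathione transferase, at 5.80 ± 0.813 CPM in Sept2C111A and 3.87 ± 0.35 CPM in WT libraries (log2 fold change 0.58, edgeR adjusted p = 0.028). Gstm2, a mu-class transferase, fell to 15.4 ± 1.37 CPM in Sept2C111A, against 19.8 ± 0.981 CPM in WT libraries (edgeR adjusted p = 0.031). Transferases of 1 class are close in sequence, and how their shared reads were divided is uncertain. Both of these calls were lost without Sept2C111A library 2 (adjusted p = 0.075 for Gstt2 and 0.085 for Gstm2) or any single WT library (0.054 to 0.11). Rises numbered 0 without Sept2C111A library 2 or any single WT library, 1 without Sept2C111A library 3 and 4 without Sept2C111A library 4. Falls numbered 0 without Sept2C111A library 2 or WT library 1, 3 or 4, and 2 without WT library 2.

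Of the 21 thioredoxin and peroxiredoxin genes, all tested, 3 were called lower and 0 higher, with a median log2 fold change of -0.02. The share called was 14.3%, against 6.46% of all tested genes. Txnrd1 was 1 of the 3. Msrb3, a methionine sulfoxide reductase, fell to 11.8 ± 1.38 CPM in Sept2C111A, against 16.4 ± 1.4 CPM in WT libraries (edgeR adjusted p = 0.024). Nxn, nucleoredoxin, fell to 18.9 ± 3.25 CPM in Sept2C111A, against 27.6 ± 3.68 CPM in WT libraries (edgeR adjusted p = 0.031). Among WT libraries, Msrb3 and Nxn were both highest in library 3 and lowest in library 2. Among Sept2C111A libraries, both were higher in libraries 1 and 4 than in libraries 2 and 3. The summed level of the stromal markers had the same pattern, and its part in these falls was not tested. Without Sept2C111A library 2 or WT library 1, 3 or 4 only Txnrd1 remained called, with adjusted p of 0.055 to 0.11 for Msrb3 and Nxn, and Nxn was also lost without Sept2C111A library 3 (0.053).

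The list of NADPH oxidase and superoxide-handling genes had 0 of 12 tested genes past the adjusted threshold in edgeR, DESeq2 and limma voom, with a median log2 fold change of 0.06. Its 1 gene with an unadjusted edgeR p under 0.05 was Sod3, which encodes an extracellular superoxide dismutase and no oxidase subunit, at 46.2 ± 7.09 CPM in Sept2C111A and 57.9 ± 10.1 CPM in WT libraries (adjusted p = 0.17), a gene named after its values were seen. In that list 1 gene was called higher without Sept2C111A library 4, where 16.5% of all tested genes were called. Cybb, its most abundant gene and the catalytic subunit of the phagocyte oxidase, measured 1904 ± 93.6 CPM in Sept2C111A and 2063 ± 138 CPM in WT libraries (log2 fold change -0.12, 95% interval -0.27 to 0.04).

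**Figure D3:**
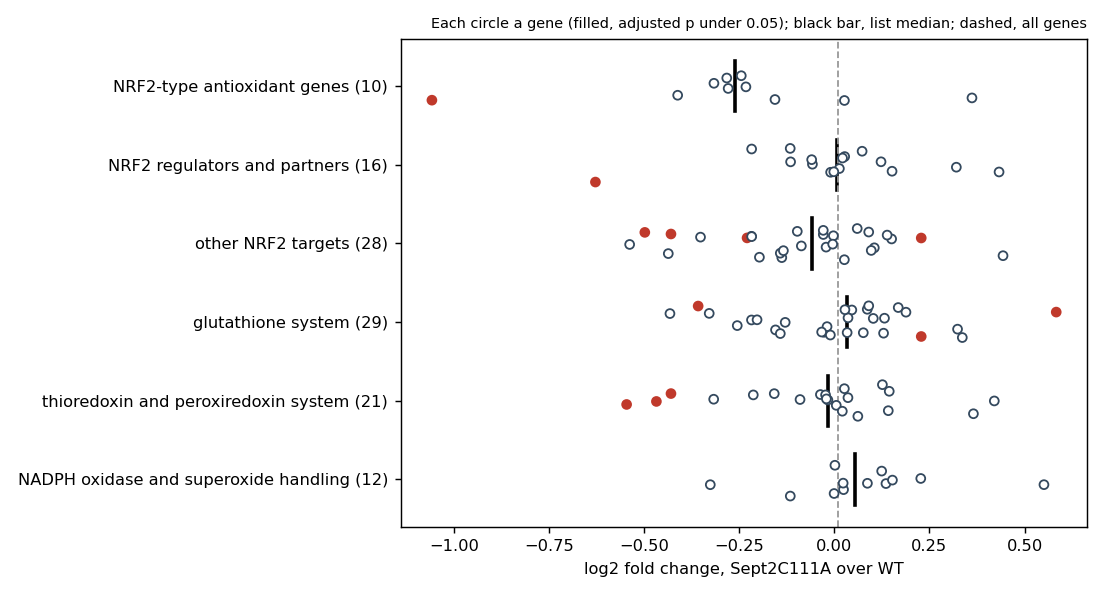
Log2 fold change of Sept2C111A over WT for every tested gene of the 10 antioxidant genes and the 5 pathway lists, filled where the edgeR adjusted p was under 0.05, with the median of each list as a black bar and that of all tested genes, 0.01, as a dashed line. The bar of the 10 genes lies at -0.26 and those of the other lists between -0.06 and 0.06.

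Across the 5 lists, counted once each, 99 genes were tested, 7 were called lower and 2 higher, or 9.09%, against the 6.46% of all tested genes. Libraries did not overlap for 26 of the 99, with Sept2C111A below WT in 18 and above in 8, where 16.9% of all tested genes did not overlap, 8.47% in each direction. No test of the lists as sets was made. Calls that held in every alternative were those of Slc7a11, Maff and Txnrd1, all lower in Sept2C111A.

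**Figure D4:**
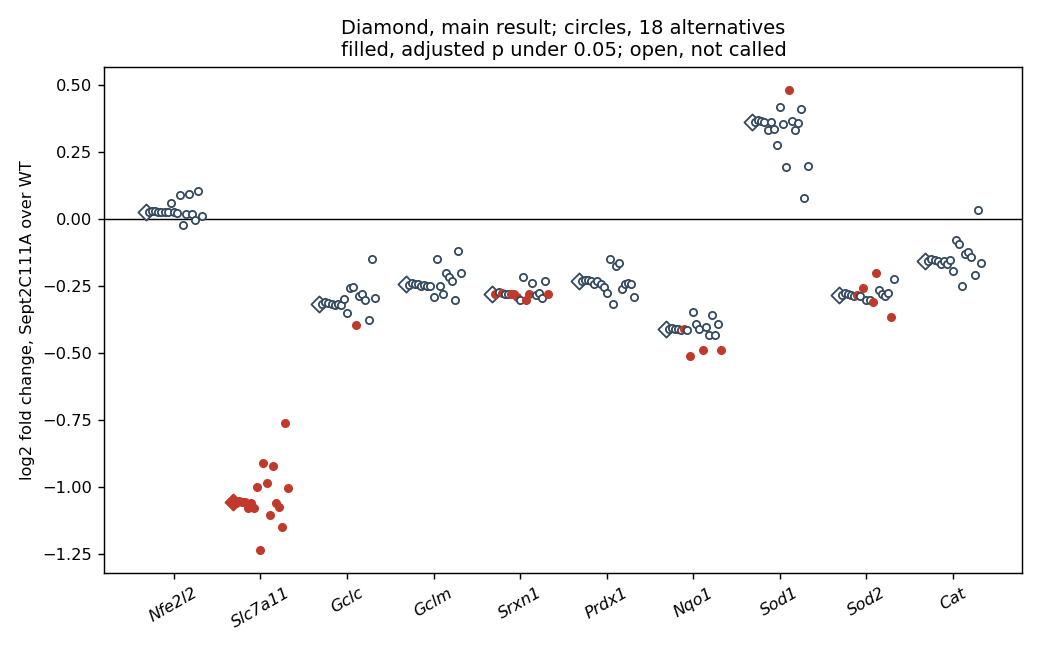
Log2 fold change of Sept2C111A over WT of the 10 antioxidant genes in the main result (diamonds) and in 18 alternatives of normalization, filter, tool and libraries left out (circles), filled where the adjusted p was under 0.05. All Slc7a11 symbols are filled and lie between -1.23 and -0.76, and those of Nfe2l2 and Cat cross 0 in some alternatives.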

How the data were processed

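The series holds 8 RNA sequencing libraries. The values the authors deposited are expected counts per gene symbol, estimated counts that need not be whole, with 1 column per library. Per the submitters' processing notes, the build was mm10 and the tools were RSEM 1.3.1, Bowtie2 and DESeq2 1.4.5, with no roles stated. Enrichment on oligo(dT) beads is stated per the labels' protocols. For annotation, strandedness and filters, the steps were not given in the sources used here.

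Counts were rounded, filtered with filterByExpr (minimum count 10) and normalized by TMM. Sept2C111A was compared with WT by edgeR 4.0.16 (R 4.3.3), quasi-likelihood test, two-sided, group only, with Benjamini-Hochberg adjustment over all 12462 tested genes. Within-library ratios used log2 of counts plus 0.5 and exact permutation tests. Intervals are 95% intervals from the fit. All 10 genes were measured with at least 4.78 CPM in every library.

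Alternatives used DESeq2 1.42.0, limma 3.58.1 voom, other filters and scalings, a replicate block, each library left out and, added after the data were seen, Sept2C111A libraries 2 and 3 left out together or length and GC trends (GENCODE M21, 98.9% of tested genes) removed with mgcv 1.9.3. Of 153 listed genes 152 were found by symbol. The genes, lists and tests were chosen with earlier results of these data known. The rule named every called gene of a list, or its most abundant gene where none was called. No pair of libraries was a copy (mean chi-square per gene at least 3.87). That value ran from 3.87 to 9.73 between WT libraries and from 14.1 to 63.3 between Sept2C111A libraries, which were less alike. Between the genotypes it ran from 14.6 to 85.7. In simulated counts for this comparison (12388 genes), 97 of 99 genes with a log2 change of 1 and 70 of 99 with 0.5 were called, with 11 false calls. Every simulated gene had the same biological coefficient of variation, 0.1, in both genotypes. The 10 genes measured here ran from 8.34% (Srxn1) to 29.1% (Slc7a11) in Sept2C111A libraries. The simulated shares therefore need not hold for genes that vary more.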

Additional observations from a re-analysis of the deposited data

Results flagged for a closer look

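A library was set against the other 3 of its genotype for 54 combinations of named gene or ratio and genotype, by the gap to its nearest neighbour as a share of the group's range. Chance marks about 1 in 20 such groups, and 4 were marked. Sod2 in Sept2C111A library 4 lay at 9.25 log2 CPM, against 9.56 to 9.58 in the other Sept2C111A libraries (share 0.924). Hmox1 in Sept2C111A library 2 lay at 10.63 log2 CPM, against 11.25 to 11.37 in the others (share 0.835). Gstm2 in the same library lay at 3.74 log2 CPM, against 4.00 to 4.02 (share 0.925). Cybb in WT library 2 lay at 11.15 log2 CPM, against 10.95 to 10.98 in the other WT libraries (share 0.866).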

How the results depend on the processing

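The calls of Slc7a11, Maff and Txnrd1 were kept in all 18 alternatives. Leaving out single libraries moved the calls over all genes to 162 to 1094 higher and 104 to 983 lower, those of the 10 genes to 0 to 1 higher and 1 to 5 lower, regulators to 0 to 1 higher and 1 to 2 lower, other targets to 0 to 1 higher and 1 to 7 lower, glutathione genes to 0 to 4 higher and 0 to 2 lower, thioredoxin genes to 0 to 1 higher and 1 to 3 lower, and the NADPH oxidase and superoxide-handling list to 0 to 1 higher. The log2 fold change then ran from -0.023 to 0.093 for Nfe2l2 and -0.029 to 0.059 for Keap1, the Nfe2l2 to Keap1 ratio difference from -0.079 to 0.095 and that of Sod2 to Sod1 from -0.69 to -0.50. Calls over all genes were 691 higher and 737 lower with DESeq2, 665 and 678 with voom sample weights, 830 and 742 with length and GC trends removed, and 282 and 210 without Sept2C111A libraries 2 and 3. For the 10 genes, calls lower were 2 with RLE, the 1 CPM filter, voom or libraries 2 and 3 left out, 4 with DESeq2 or sample weights, and 3 with trends removed. With DESeq2, sample weights and trends removed, regulators had 2 lower in each, other targets 6, 7 and 9 lower, and thioredoxin genes 1 higher in each. Other targets had 0 higher with no filter or trends removed, and 1 lower without libraries 2 and 3. Glutathione genes had 1 higher with no filter, without libraries 2 and 3 or with trends removed, and 3 lower with DESeq2, 5 with trends removed and 0 without libraries 2 and 3. Thioredoxin genes had 1 lower without libraries 2 and 3, and signs turned there for Cat (0.034), Keap1 (-0.080) and Slc3a2 (-0.044). The causes were not tested.

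Same-numbered libraries correlated at 0.163, 0.101, -0.0134 and -0.352 in their deviations from the genotype means. Only replicate 1 correlated best with its own number, so no pairing by number was seen. So few correlations cannot exclude libraries prepared in pairs, on which the labels are silent. With the replicate block 494 genes were called, 242 higher, with 1 of the 10 genes lower, other targets 0 higher and glutathione genes 0 higher and 0 lower, and the Sod2 to Sod1 ratio difference was -0.62 (exact p = 0.125). The block ended the calls of Tkt (adjusted p = 0.092), Abcc4 (0.062), Mgst1 (0.11), Gstm2 (0.054), Gstt2 (0.062) and Msrb3 (0.051), with thioredoxin genes at 2 lower, and called Hmox1 (0.034). Depth limits low genes most, Nqo1 among the 10.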
